A study of Mus musculus with 31 samples.

Results

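Gata3, Tcf7, Bcl11b and Lef1 are 4 transcription factor genes that thymic progenitors use to enter the T cell lineage. They were chosen by gene symbol, and all 4 were found by Ensembl ID among the 48881 gene rows of the count tables. Gata3 (ENSMUSG00000015619) lies on mouse chromosome 2 from 9857078 to 9890034 on the minus strand, and Tcf7 (ENSMUSG00000000782) on chromosome 11 from 52252371 to 52283014 on the minus strand. Bcl11b (ENSMUSG00000048251) lies on chromosome 12 from 107910403 to 108003602 on the minus strand, and Lef1 (ENSMUSG00000027985) on chromosome 3 from 131110471 to 131224356 on the plus strand (all mm10, GENCODE M21). Every one of the 4 passed the filter on low counts in the fits of the cultures, of the thymus table and of the lung table.

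RNA-seq read counts were collected from 31 mouse libraries of strain C57BL/6. In the cultures, DN3 or DN1 thymocytes, a later and an earlier stage before CD4 and CD8 are expressed, grew on OP9-DL1 stroma, which presents the Notch ligand DL1, with IL-2, IL-7 and SCF. All culture donors carried R26-CreERT2, a Cre recombinase switched on by 4-hydroxytamoxifen (4-OHT), and the R26-stop-tdTomato reporter. Cells called floxed also carried E2Af/fHEBf/f, that is, floxed alleles of the E protein genes Tcf3 (E2A) and Tcf12 (HEB), and cells called control did not. Libraries were made on day 4, when 4-OHT was added, and on days 5 and 7 from tdTomato-positive cells, which marks Cre activity and not deletion itself. For DN1 day 7 samples the labels place 4-OHT on day 7, unlike the design text, which places it on day 4. Each of the 12 culture groups had 2 libraries, lettered a and b in floxed and c and d in control cells. Group 2 innate lymphoid cells (ILC2), which make type 2 cytokines, were taken directly from thymus (2 libraries) and lung (2 libraries) of plck-Cre;E2Af/fHEBf/f mice, called dKO. They were also taken from the lung of plck-Id1 mice (3 libraries, all titled Id1, whose genotype labels read plck-Id1, plck-Id2 and plck-Id3). The plck promoter is active in thymocytes, so the Cre and Id1 transgenes act there first, and Id1 blocks E proteins without a deletion.

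In the thymus, Notch signals first switch on Tcf7 (which encodes TCF-1) and Gata3. Bcl11b follows, closes off other fates and marks commitment, and Lef1, a close relative of Tcf7, comes on later. Gata3, Tcf7 and Bcl11b are also needed in mice for ILC2 to form or to stay ILC2, so these genes are shared by both lineages. E proteins bind the E-box motif on DNA, and Id proteins prevent that binding.

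Because the deleted factors read E-boxes, the RefSeq promoter windows of the 4 genes (GRCm38.p6, 250 bases before to 50 after each start) were searched for E-boxes. The general form was CANNTG. A second search used the palindrome CAGCTG, and a further one used CACCTG, which reads CAGGTG on the opposite strand; both strands were searched, and these 2 forms are also matches of the general one. The stretches below are shown because they hold the matches of these 2 forms, with the match in capitals and each written 5′ to 3′ on the strand of its gene. They are, in order, chr2:9878584-9878613 (minus strand), chr11:52283156-52283185 (minus strand), chr11:52282546-52282568 (minus strand), chr3:131110341-131110370 (plus strand) and chr3:131112574-131112603 (plus strand).
Gata3: tgcgtcgcgccaCAGCTGtctgcgaacact
Tcf7, first window: cgcaccatgccgCAGCTGgactcgggcggg
Tcf7, second window: tcccctccagccCAGGTGactga
Lef1, CACCTG: ggcgcaaccgctCACCTGcggggcagcgcg
Lef1, CAGCTG: actctgtctcagCAGCTGaggaaacctcac
The Gata3 match begins 1 base before the annotated start in its only window. Tcf7 had 2 windows with 2 CANNTG matches in all, and Lef1 had 4 windows with 6. The single Bcl11b window held 0 matches of any form. Among all 32851 promoter windows of this length, 72.3% held a CANNTG, 16.3% held a CAGCTG, and 20.2% held a CACCTG on either strand. A match of letters is a description of the sequence and not evidence of binding.

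Library totals were 4818443 and 5669876 counts for thymic ILC2, 5908459 to 10692186 for the cultures, 3695522 and 5627406 for dKO lung and 9671437 to 13065445 for plck-Id1 lung. Tcf12 averaged 155.3 and 106.4 CPM (counts scaled to the library total) in DN3 and DN1 floxed cells on day 7, against 513.7 and 279.2 in their controls, and Tcf3 averaged 23.2 and 27.3 against 98.3 and 88.1. Genotype went together with sex in the cultures: Xist ranged from 588 to 1901 CPM in floxed and from 4.55 to 71.4 in control libraries, and summed Y-linked genes from 0.508 to 26.7 against 76.4 to 190.9 CPM. Genotype and sex cannot be told apart here. On day 4, before any tdTomato sort, the 12 stromal markers summed to 1439 to 7358 CPM, against 54.3 to 193.7 on days 5 and 7. In 1 library, DN1 floxed day 7 replicate b, 10 muscle markers summed to 8667 CPM, against 74.1 in replicate a and 9.71 and 10.2 in the day 7 DN1 controls. DN1 floxed day 4 replicate a also stood apart, with 12 myeloid markers at 542.5 CPM and the muscle markers at 523.8, against 99.4 to 158.0 and 30.5 to 72.0 in the other DN1 day 4 libraries. DN1 floxed day 5 replicate a held 310.6 CPM of the myeloid markers, against 41.1 to 56.1 in the other DN1 day 5 libraries. The part of sex, stroma, muscle or myeloid RNA in the results was not tested, and values without these 3 libraries are given beside the results they move. Without the muscle-marked library Tcf12 and not Tcf3 passed as lower in DN1 floxed cells on day 7. All 9 cultured thymocyte markers had counts in every culture group, and also in dKO thymic and dKO lung ILC2, where they summed to 2405 to 2739 and 2085 to 4878 CPM. They do not set the cultures apart from these ILC2. In plck-Id1 lung ILC2 Ptcra and Rag1 had no counts. The 12 ILC2 markers summed to 1674 and 2475 CPM in thymic ILC2, 2619 and 6282 in dKO lung and 5138 to 8088 in plck-Id1 lung. All 12 had a count in each of these groups and also in some culture groups, such as DN3 controls on day 7. In the cultures of days 5 and 7 they summed to 910.0 to 2621 CPM, so the sum does not set thymic ILC2 apart from those cultures. All changes below are log2 values from edgeR's quasi-likelihood fit with their standard error (SE), and a gene passed at a Benjamini-Hochberg adjusted p under 0.05. The lowest counts of a member in the cultures were those of Lef1 in the 12 DN1 libraries, 41 to 368.

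Precursor stage came first, since among the edgeR tests with TMM scaling the widest differences of 3 of the 4 genes lay there. In control cells Tcf7, Bcl11b and Lef1 were higher in DN3 than in DN1 cultures on each day. Gata3 did not pass as higher on any day in the fit of all 24 culture libraries. The number of members that passed was 3 of 4 on day 4, where 39.7% of the 15172 genes tested passed, 4 of 4 on day 5 (30.0%) and 3 of 4 on day 7 (22.6%). Alpha-beta T cell markers were also higher in DN3 controls, 6 of 6 on days 4 and 5 and 5 of 6 on day 7 (list medians 3.29, 4.11 and 4.32), and summed to 2400 to 2904 CPM in DN3 and 745.3 to 1580 in DN1 controls over the 3 days. Their part was not tested. In bulk libraries such as these, fewer cells of a type and less RNA per cell cannot be told apart.

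Lef1 showed the widest gap. DN3 controls held 266.5 and 236.7 CPM on day 4, 212.1 and 247.8 on day 5 and 191.7 and 210.6 on day 7. DN1 controls held 13.4 and 10.6, 6.08 and 6.46, and 15.0 and 10.9 CPM on the same days. No DN1 library came near a DN3 library. The DN3 minus DN1 differences were 4.35 ± 0.42 (adjusted p = 2.75e-07), 5.17 ± 0.46 (9.31e-08) and 3.97 ± 0.42 (1.22e-06), or 20.4-fold, 36.0-fold and 15.6-fold.

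Bcl11b, the commitment factor, stood at 1175 and 1158 CPM in DN3 controls on day 4, 1277 and 1363 on day 5, and 1624 and 1657 on day 7. In DN1 controls it stood at 256.3 and 221.3, 513.7 and 461.6, and 651.7 and 666.1 CPM. Both stages were separate on every day, and the differences were 2.25 ± 0.12 (1.49e-09), 1.42 ± 0.12 (5.72e-08) and 1.33 ± 0.12 (2.35e-07). Tcf7 stayed near one level in DN3 controls, at 844.9 and 848.9 CPM on day 4, 815.5 and 912.9 on day 5, and 815.8 and 849.4 on day 7. In DN1 controls it was 237.4 and 205.4, 412.8 and 429.3, and 543.5 and 526.9 CPM. The gap on those days was 1.90 ± 0.15 (3.8e-08), 1.02 ± 0.15 (3.79e-05) and 0.65 ± 0.15 (0.0034).

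Gata3 differed less between the stages than the other genes did on each day. DN3 controls held 80.2 and 91.3 CPM on day 4, against 78.1 and 65.9 in DN1 controls, a difference of 0.21 ± 0.20 (adjusted p = 0.447). It passed as higher in DN3 controls when only those groups were fitted (0.30, adjusted p = 0.0173). On day 5 Gata3 was lower in DN3 controls, with 85.8 and 114.7 CPM against 155.3 and 144.8 in DN1 controls (-0.60 ± 0.20, adjusted p = 0.0275). That call was lost without DN1 control c (0.14), DN1 control d (0.0774) or DN3 control c (0.236). On day 7 the libraries overlapped, at 189.0 and 143.9 CPM in DN3 and 184.1 and 160.7 in DN1 controls (-0.04 ± 0.20, 0.923). On day 4 the stromal markers summed to 1439 and 1634 CPM in DN3 and to 7186 and 7358 CPM in DN1 controls.

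**Figure D1:**
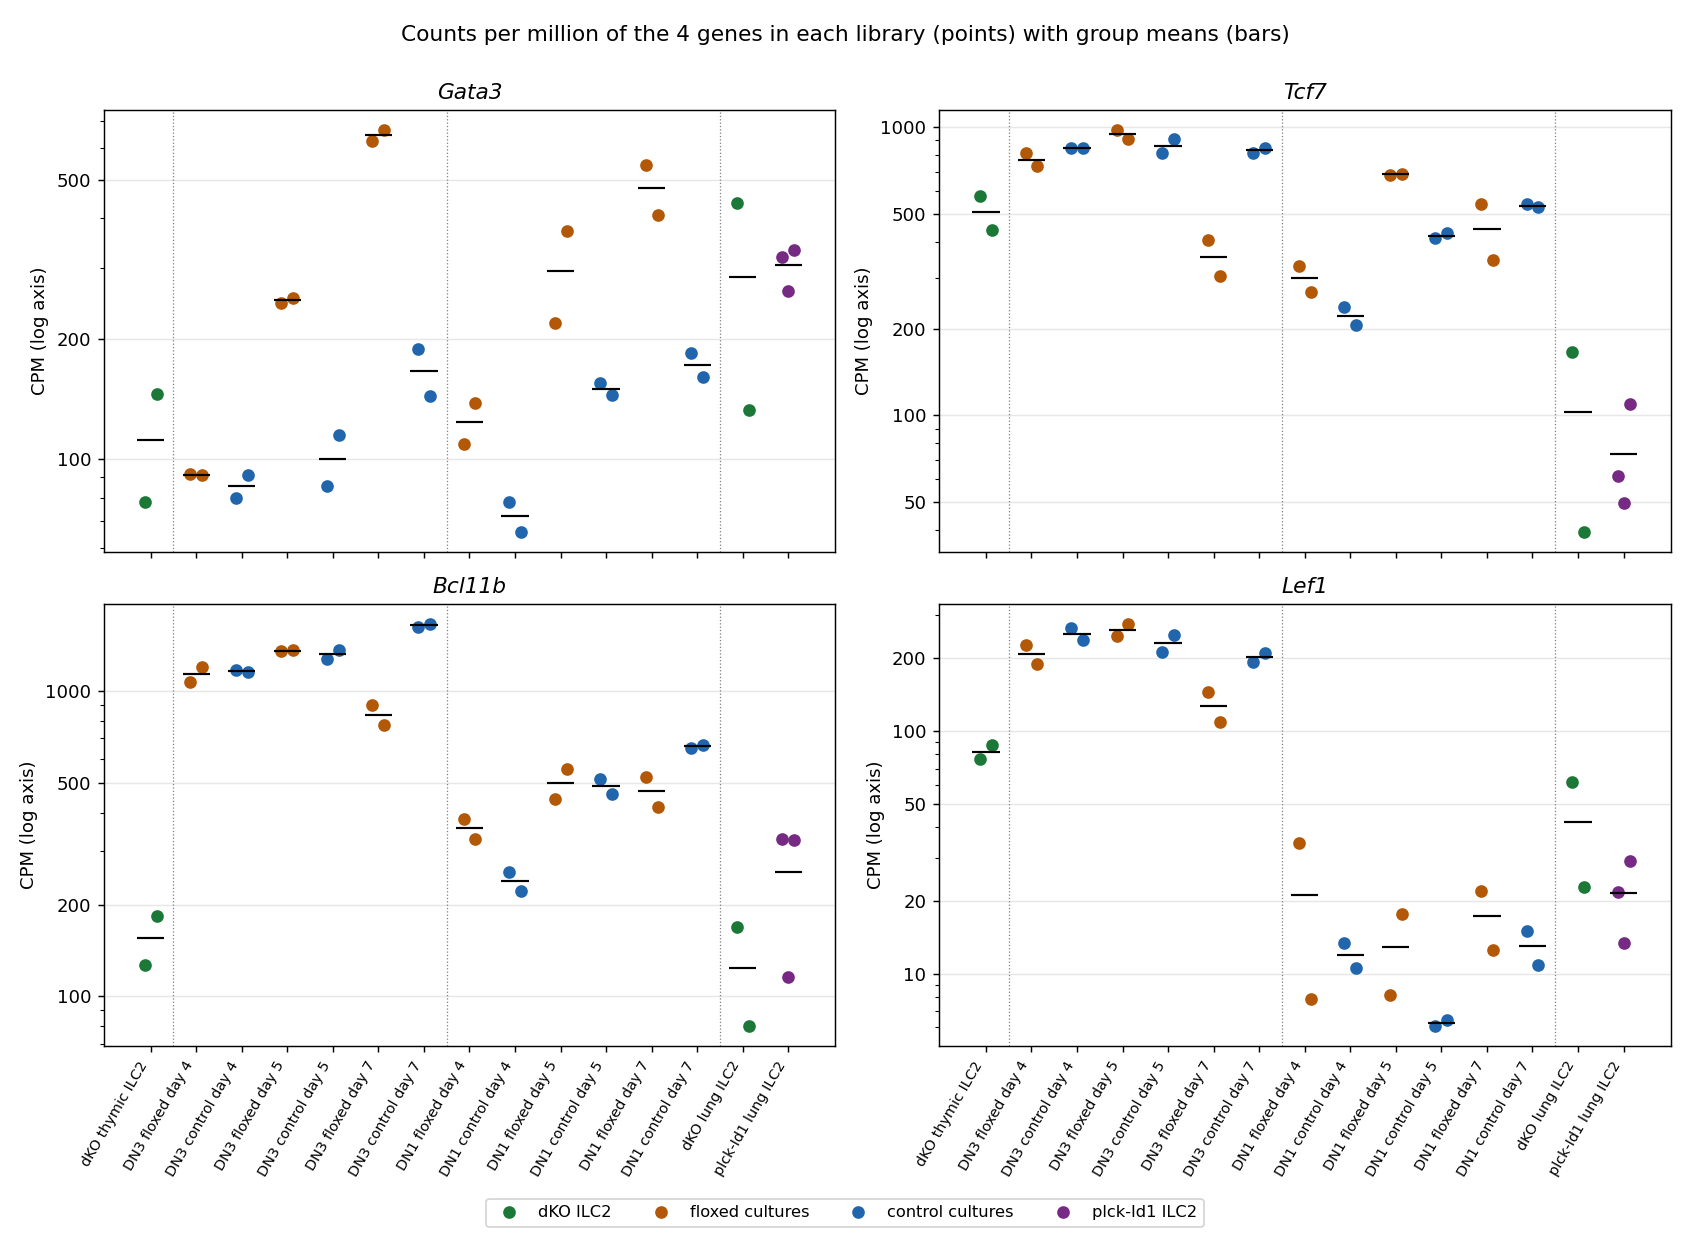
CPM of each gene in every library (points) on a log axis, with a bar at each group mean, for thymic ILC2, DN3 cultures, DN1 cultures and lung ILC2. Floxed Gata3 points stand above the control points on days 5 and 7 in both precursors, and Lef1 separates the DN3 libraries (108.8 to 276.0 CPM) from the DN1 libraries (6.08 to 34.4 CPM).

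The comparison of floxed with control cells asks what happened to the 4 genes once the E protein alleles could be deleted. Gata3 was higher in floxed cells on days 5 and 7 in both precursors. Bcl11b was lower on day 7 in both, and Tcf7 was lower on day 7 in DN3 cells and higher on day 5 in DN1 cells. Lef1 did not pass in any of these 6 comparisons. In DN3 cells the number of members that passed was 0 on day 4 (0.442% of all 15172 genes passed), 1 on day 5 (9.76%) and 3 on day 7 (24.9%). In DN1 cells it was 0 on day 4 (0.105%), 2 on day 5 (5.02%) and 2 on day 7 (22.5%). At an unadjusted p under 0.05, 1243 and 728 genes lay on day 4 in DN3 and DN1 cells with edgeR. With DESeq2, 0 members passed on day 4 in DN3 cells and 2 in DN1 cells: Gata3 (0.77, adjusted p = 0.0345) and Bcl11b (0.57, 0.00274). With edgeR, Gata3 passed there when the DN1 day 4 groups were fitted alone (0.79, 0.0301). All 4 members passed there with no filter on low counts.

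Gata3, the zinc finger factor needed by both T cells and ILC2, did not pass in DN3 cells on day 4, at 91.6 and 91.2 CPM in floxed and 80.2 and 91.3 in control libraries (0.11 ± 0.20, adjusted p = 0.921). On day 5 DN3 floxed libraries held 246.0 and 253.1 CPM, against 85.8 and 114.7 in controls. On day 7 they held 625.7 and 666.3 CPM, against 189.0 and 143.9 in controls. Every floxed library was above every control library on both days. The differences were 1.25 ± 0.20 on day 5 (2.39-fold, adjusted p = 0.000434) and 2.03 ± 0.20 on day 7 (4.07-fold, 6.53e-07). Both passed without any single library, with adjusted p values of up to 0.0172 on day 5 and 0.000106 on day 7.

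In DN1 cells Gata3 was already separate on day 4, with 109.0 and 138.1 CPM in floxed and 78.1 and 65.9 in control libraries, without passing (0.77 ± 0.20, adjusted p = 0.308). On day 5 the floxed libraries held 218.8 and 371.8 CPM, against 155.3 and 144.8 in controls (0.94 ± 0.20, 1.92-fold, 0.00679). On day 7 they held 542.4 and 408.6 CPM, against 184.1 and 160.7 in controls (1.52 ± 0.20, 2.87-fold, 1.99e-05). The groups did not overlap on any of the days. Without the myeloid-marked floxed a the day 4 value was 0.92 (0.442) and the day 5 value 1.28 (0.000295). The day 5 call did not hold without floxed b (0.51, adjusted p = 0.266), nor without control d (0.89, 0.102) or control c (1.0, 0.0611). The day 7 call stood without any single library, also without the muscle-marked floxed b (1.69, 1.74e-05).

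Tcf7 encodes TCF-1, an early Notch target that opens T cell genes. In DN3 cells it did not pass on day 4 or 5: floxed libraries held 812.3 and 732.2 CPM on day 4, against 844.9 and 848.9 in controls (-0.12 ± 0.15, adjusted p = 0.881), and 980.9 and 911.8 on day 5, against 815.5 and 912.9 (0.07 ± 0.15, 0.843). On day 7 it fell to 405.5 and 305.3 CPM in floxed cells, against 815.8 and 849.4 in controls. The change was -1.16 ± 0.15, that is 0.447 of the control level (1.36e-05), and it passed without any single library, with adjusted p values of up to 0.00109. Markers of alpha-beta T cells moved with it: 4 of 6 (Cd4, Cd8a, Cd8b1 and Trac) were lower in DN3 floxed cells on day 7, with a median of -3.42, and the 6 summed to 2091 and 2202 CPM in floxed and 2522 and 2565 in control libraries. All 6 had counts in each of the DN3 groups. Their part in the values of Tcf7, Bcl11b and Lef1 was not tested.

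In DN1 cells Tcf7 passed on day 5 and not on day 7. On day 4 it was 330.5 and 267.4 CPM in floxed and 237.4 and 205.4 in control libraries (0.43 ± 0.15, adjusted p = 0.665). On day 5 it was higher in floxed cells, at 682.4 and 691.0 CPM against 412.8 and 429.3 (0.67 ± 0.15, 1.59-fold, 0.0112). It passed without the myeloid-marked floxed a (0.69, 0.0425) and was lost without floxed b (0.66, 0.101), control c (0.65, 0.121) or control d (0.70, 0.0907). On day 7 the libraries overlapped, at 540.2 and 346.6 CPM in floxed and 543.5 and 526.9 in control cells (-0.22 ± 0.15, 0.316). The day 7 value rested on which floxed library was used: it was -0.55 without a (0.00457) and 0.05 without the muscle-marked b (0.9).

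Bcl11b did not pass between genotypes in DN3 cells on day 4 or 5. The floxed libraries held 1067 and 1199 CPM on day 4, against 1175 and 1158 in controls (-0.02 ± 0.12, adjusted p = 0.976), and 1352 and 1359 on day 5, against 1277 and 1363 (-0.02 ± 0.12, 0.948). The interval of 2 SE on day 5 ran from -0.26 to 0.21. On day 7 the groups were separate: Bcl11b was 897.7 and 774.2 CPM in floxed cells, against 1624 and 1657 in controls. The change was -0.91 ± 0.12, or 0.534 of the control level (1.53e-05), and passed without any single library.

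In DN1 cells Bcl11b was 381.8 and 329.0 CPM on day 4 in floxed libraries, against 256.3 and 221.3 in controls, without passing (0.57 ± 0.12, adjusted p = 0.0767, and 0.0485 without floxed b). On day 5 the genotypes overlapped, at 442.0 and 554.3 CPM in floxed and 513.7 and 461.6 in control cells, and the interval of 2 SE ran from -0.24 to 0.24. On day 7 Bcl11b was lower in floxed cells, at 523.4 and 416.2 CPM against 651.7 and 666.1 (-0.43 ± 0.12, 0.742 of the control level, 0.014). The call was lost without the muscle-marked floxed b (-0.30, 0.185), without control c (-0.45, 0.0545) or control d (-0.41, 0.0786), and when the 2 groups were fitted alone (0.149).

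Lef1, the HMG-box partner of Tcf7, did not pass on any day in either precursor. In DN3 cells it was 226.0 and 188.2 CPM on day 4 in floxed libraries, against 266.5 and 236.7 in controls (-0.26 ± 0.35), and 245.5 and 276.0 on day 5, against 212.1 and 247.8 (0.12 ± 0.35). On day 7 the floxed libraries held 145.4 and 108.8 CPM, both below the controls at 191.7 and 210.6. That difference was -0.60 ± 0.35 (adjusted p = 0.244), with a 2 SE interval from -1.30 to 0.10, and it passed when those 2 groups were fitted alone (-0.61, 0.00659) or with no filter on low counts (-0.57, 0.000538). In DN1 cells Lef1 was low and uneven between replicates: 34.4 and 7.82 CPM in floxed libraries on day 4, 8.18 and 17.6 on day 5, and 21.9 and 12.5 on day 7. The differences from control were 0.88 ± 0.43 (0.999), 1.0 ± 0.51 (0.324) and 0.47 ± 0.44 (0.477), and the first turned to -0.63 without floxed a and passed at 1.52 (0.0464) without floxed b. With no filter on low counts Lef1 passed in DN1 cells on day 4 (0.91, 1.74e-05) and day 5 (1.01, 2.02e-05).

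**Figure D2:**
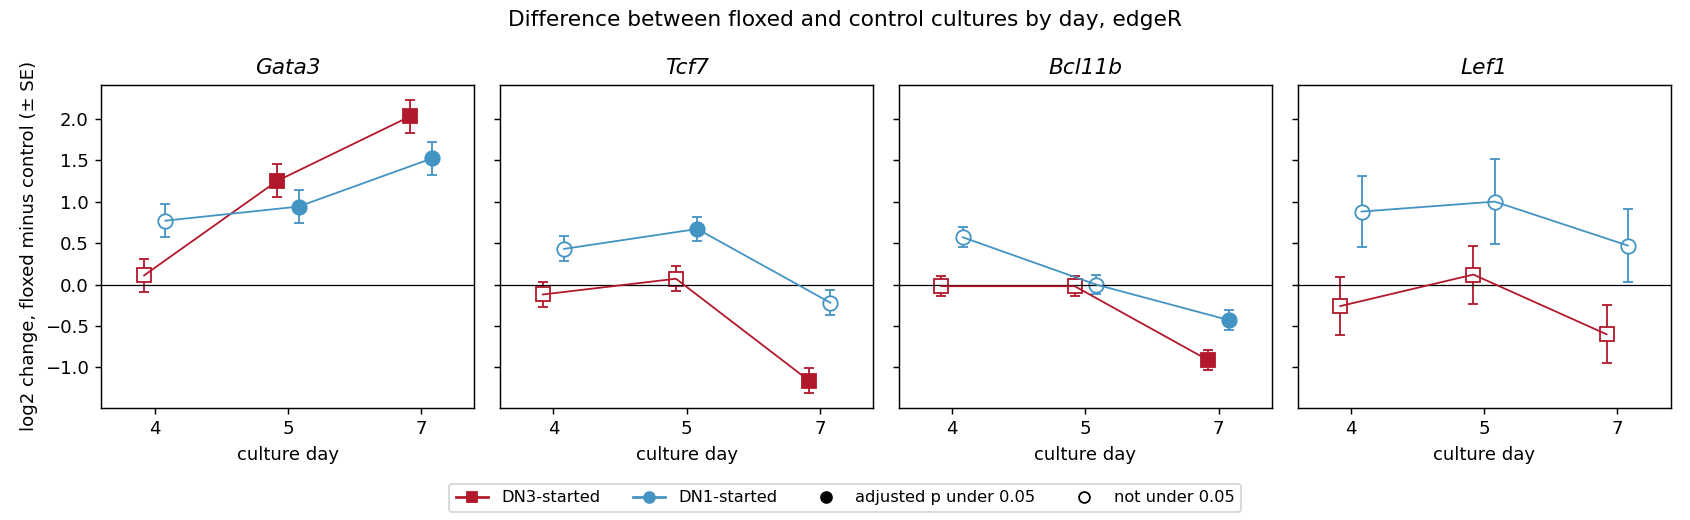
Log2 difference of floxed minus control cells for each gene on days 4, 5 and 7 with its SE, for DN3 and DN1 cultures (n = 2 libraries per group); filled symbols passed at an adjusted p under 0.05. Gata3 differences reach 2.03 in DN3 and 1.52 in DN1 cells on day 7, while Tcf7 and Bcl11b reach -1.16 and -0.91 in DN3 cells.

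On day 4 both DN1 floxed libraries stood above both controls for Gata3, Tcf7 and Bcl11b, without passing with edgeR, while Lef1 overlapped. List medians there were 0.62 for T-identity genes, 0.7 for alpha-beta T cell and 0.91 for ILC2 markers, against -0.02 over all genes. Cultured thymocyte markers had 0.09, other T-lineage regulators 0.08 and progenitor genes -0.45. Stromal markers summed to 5356 and 6434 CPM in floxed and 7358 and 7186 in control libraries. The part of such shifts in the member values was not tested. Because of the day 4 gaps, the change of the genotype difference from day 4 to day 7 was tested as an interaction. That test uses the day 7 libraries a further time. In DN3 cells 3 of 4 members passed (12.3% of all genes): the difference moved by 1.91 ± 0.28 for Gata3 (adjusted p = 0.000211), by -1.05 ± 0.21 for Tcf7 (0.00267) and by -0.88 ± 0.17 for Bcl11b (0.00166). In DN1 cells 1 of 4 passed (7.78%), Bcl11b at -1.0 ± 0.17 (0.00101). Its genotype difference ran from 0.57 on day 4, before 4-OHT, to -0.43 on day 7. T-identity genes had a median of -1.24 in the same DN1 test, with 9 of 16 lower and 0 higher. The DN1 values of Gata3 (0.75 ± 0.28, 0.112), Tcf7 (-0.65 ± 0.21, 0.0687) and Lef1 (-0.42 ± 0.61, 0.738) did not pass. Without the muscle-marked DN1 floxed day 7 b the DN1 value was -0.88 for Bcl11b (0.0047), -0.39 for Tcf7 (0.29) and -0.12 for Lef1 (0.973). Without floxed day 4 a it was -0.88 for Bcl11b (0.00946), -0.48 for Tcf7 (0.272) and 1.10 for Lef1 (0.235). Tcf7 in DN1 cells passed in DESeq2 (0.0345) and without floxed day 7 a (-0.99, 0.000655) or floxed day 4 b (-0.80, 0.0458). Day 4 libraries hold the stromal RNA described above.

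Whether the precursors responded differently was tested on the difference of differences, DN3 minus DN1. On day 5, 0 of 4 members passed in the edgeR fit of all cultures, where 1.36% of all genes passed. At an unadjusted p under 0.05 lay 1927 of 15172 genes. DESeq2 also gave 0 members. Tcf7 stood at -0.60 ± 0.21 (adjusted p = 0.199) in that edgeR fit, and passed when only the day 5 groups were fitted (-0.61, 0.0284). With no filter on low counts Tcf7 (-0.6, 0.00356) and Lef1 (-0.87, 0.0201) passed on day 5. On day 7, 1 of 4 passed (7.79%): Tcf7, at -0.95 ± 0.21 (0.00935). It was lost without DN3 floxed b (-0.76, 0.0681) and when those 4 groups were fitted alone (-0.96, 0.0919). Without the muscle-marked DN1 floxed b it was -1.22 (0.000292), and Bcl11b then passed too (-0.61, 0.0337). With all libraries the day 7 value was -0.48 ± 0.17 (0.0901) for Bcl11b, 0.51 ± 0.27 (0.279) for Gata3 and -1.06 ± 0.56 (0.264) for Lef1. In this fit the larger Gata3 change in DN3 cells is therefore not shown to differ from that in DN1 cells, with a 2 SE interval from -0.04 to 1.05. With no filter on low counts all 4 members passed on day 7, Gata3 at 0.56 (0.022).

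Set directly against each other on day 7, DN3 and DN1 floxed cells differed in 2 of 4 members (22.0% of all genes). Bcl11b was higher in DN3 floxed cells, with a mean of 835.9 CPM against 469.8 (0.85 ± 0.12, adjusted p = 4.81e-05), and so was Lef1, with 127.1 against 17.2 (2.90 ± 0.40, 4.26e-05). Gata3 averaged 646.0 against 475.5 CPM (0.47 ± 0.19, 0.0911) and Tcf7 355.4 against 443.4 CPM (-0.30 ± 0.15, 0.172). Without DN1 floxed a, Gata3 passed (0.66, 0.0291) and Tcf7 stood at 0.04. Without the muscle-marked DN1 floxed b, Tcf7 passed (-0.57, 0.00661).

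Between days 5 and 7, after the tdTomato sort on both days, DN3 floxed cells changed in 3 of 4 members (24.5% of all genes). Gata3 rose by 1.45 ± 0.20 to a mean of 646.0 CPM on day 7, against 249.5 on day 5 (adjusted p = 1.86e-05). Tcf7 fell by 1.33 on the log2 scale, to 355.4 against 946.3 CPM (SE 0.15, 2.5e-06), and Bcl11b fell by 0.62, to 835.9 against 1355 CPM (SE 0.12, 0.000663). Lef1 averaged 127.1 on day 7 against 260.7 CPM on day 5 and did not pass (-0.96 ± 0.35, 0.054). It passed with library totals as the scaling (-1.04, 0.0369) and when the 2 groups were fitted alone (0.00132).

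DN3 control cells changed in 1 of 4 members over the same days (20.3% of all genes): Gata3 was higher on day 7, at 166.5 against 100.3 CPM (0.68 ± 0.20, adjusted p = 0.0195), a call lost without control c of day 5 (0.46, 0.235) or of day 7 (0.47, 0.236). DN1 floxed cells changed in 2 of 4 (21.5%, or 3256 genes, a count of 133 when the 2 groups were fitted alone and 1458 to 5458 with 1 library left out): Gata3 averaged 475.5 on day 7 against 295.3 CPM on day 5 (0.70 ± 0.19, 0.0156) and Tcf7 443.4 against 686.7 CPM (-0.62 ± 0.15, 0.00628). The Gata3 call was lost without floxed a of day 5 (0.35, 0.254) or of day 7 (0.49, 0.0844), the Tcf7 call without floxed b of day 7 (-0.36, 0.116), and both when the 2 groups were fitted alone (0.215 and 0.175). In DN1 control cells 0 of 4 passed with edgeR (13.1%; 4010 of 15172 genes at an unadjusted p under 0.05), and 1 with DESeq2, Bcl11b (0.38, 0.0215). Bcl11b there averaged 658.9 on day 7 against 487.7 CPM on day 5 (0.35 ± 0.12, 0.0585).

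Levels of different genes can be compared only per length, so CPM was divided by the exon length in kb, which is 3.978 for Gata3, 2.625 for Tcf7, 8.111 for Bcl11b and 8.788 for Lef1. On that scale Tcf7 ranked first of the 4 in 11 of the 12 culture groups. The exception was DN3 floxed cells on day 7, where Gata3 ranked first. Gata3 made up 35.8% and 42.8% of the summed CPM per kb of the 4 genes in those libraries, against 8.19% and 6.15% in the day 7 DN3 controls. The share of Tcf7 was 35.2% and 29.7%, against 53.6% and 55.0%, and that of Bcl11b was 25.2% and 24.4%, against 34.5% and 34.7%. In DN1 floxed cells on day 7 Gata3 made up 33.3% and 35.7%, against 13.8% and 12.4% in controls. Gata3 was the one member whose share was higher in every floxed than in every control library in both precursors on day 7. These are shares of one sum, so a higher share of one gene lowers the others.

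**Figure D3:**
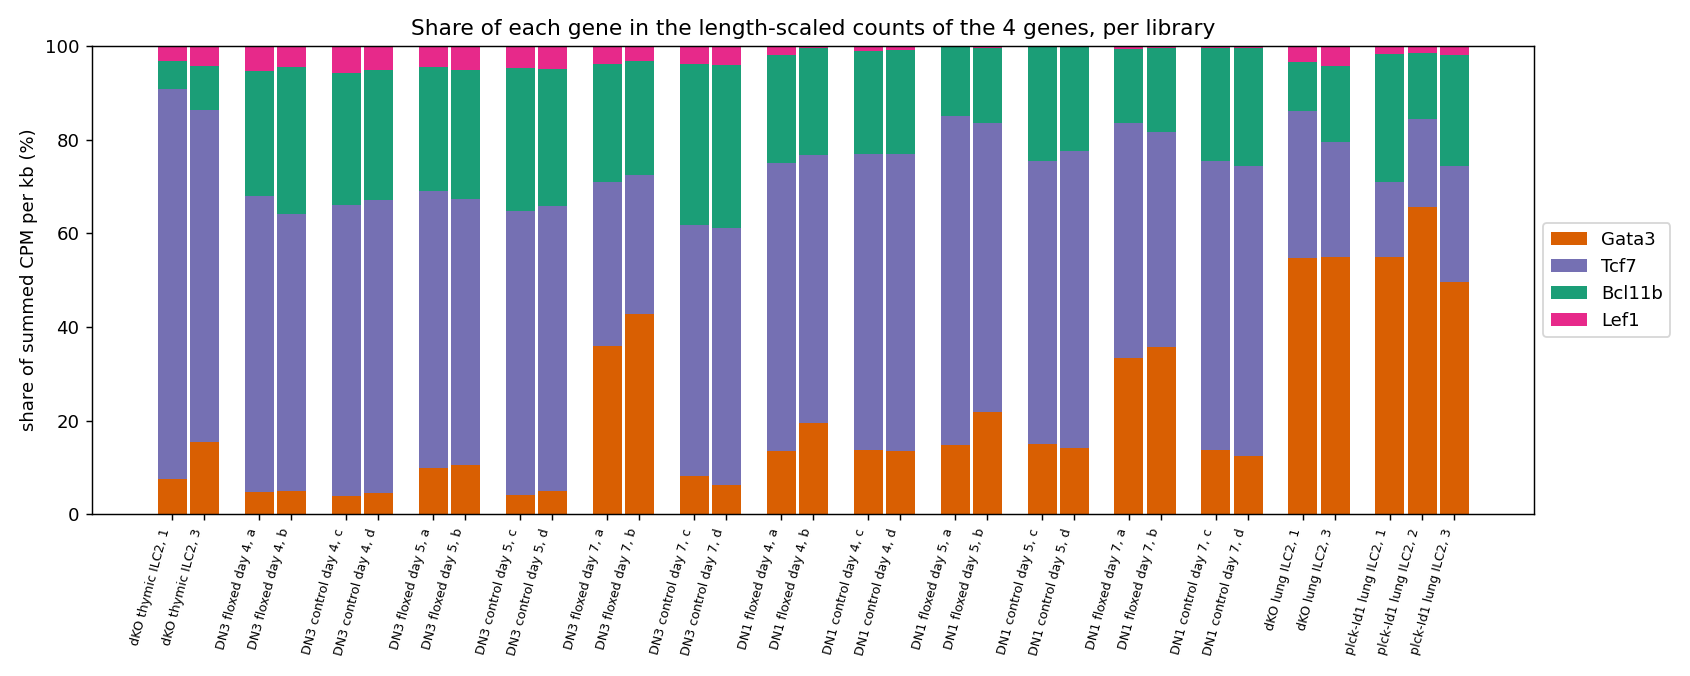
Share of Gata3, Tcf7, Bcl11b and Lef1 in their summed CPM per kb of exon, 1 bar per library. Gata3 takes 35.8% and 42.8% in DN3 floxed day 7 libraries and 49.7% to 65.5% in the 5 lung ILC2 libraries, and 3.90% to 8.19% in DN3 controls.

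The genes around the 4 factors were followed with the lists set out in the next paragraphs, at day 7, floxed against control. The T-identity genes, which encode the CD3 chains, the pre-T cell receptor, the recombinase and TCR signalling proteins, are known to depend on TCF-1, Gata3 and Bcl11b as well as on E proteins. In DN3 cells 11 of 16 were lower and 0 higher, with a list median of -1.02. In DN1 cells 9 of 16 were lower and 0 higher, with a median of -0.98. Over all genes tested 12% were lower and 12.9% higher in DN3 cells, and 10.3% lower and 12.2% higher in DN1 cells, with medians of -0.01 and 0.00, beside which the counts and medians of every list below stand too. Rag1, the recombinase, averaged 7.55 CPM in DN3 floxed cells against 537.6 in controls (-6.15 ± 0.47, adjusted p = 4.25e-08). Cd3g, a CD3 chain, averaged 2.89 CPM in DN1 floxed cells against 82.9 in controls (-4.78 ± 0.29, 5.75e-09).

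Of the 16 other T-lineage regulators, 5 were higher and 8 lower in DN3 floxed cells, and 4 were higher and 8 lower in DN1 floxed cells (list medians -0.49 and -0.43). Notch3, a Notch receptor and target, averaged 14.2 against 68.0 CPM in DN3 cells (-2.23 ± 0.31, adjusted p = 2.95e-05), and Notch1, the receptor that starts the program, 37.0 against 262.9 in DN1 cells (-2.77 ± 0.20, 2.93e-08). Gfi1, a repressor used by T cells and ILC2, was lower in both, at 29.4 against 113.2 CPM in DN3 (-1.89 ± 0.18, 3.24e-07) and 17.4 against 70.6 in DN1 cells (-1.96 ± 0.18, 4.91e-07). Zbtb7b, a factor of the CD4 lineage, averaged 1.74 against 0.142 CPM in DN3 cells (3.78 ± 0.82, 0.00206), at few counts in the controls. Notch3 in DN1 cells averaged 6.06 against 32.6 CPM (-2.36 ± 0.34, 6.52e-05). Ikzf3, of the Ikaros family, averaged 69.9 against 1.10 CPM in DN1 cells (6.02 ± 0.55, 4.43e-07).

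Bcl11b holds back genes of innate lymphocytes in mouse T cells. Of 7 genes known to go up when it is lost, 6 could be tested, and 4 of them were higher and 0 lower in DN3 floxed cells (list median 1.53), and 5 higher and 0 lower in DN1 floxed cells (2.58). Zbtb16, which encodes PLZF, averaged 4.23 against 0.0708 CPM in DN3 (5.83 ± 1.02, adjusted p = 0.000331) and 64.8 against 7.48 in DN1 cells (3.16 ± 0.39, 1.32e-05). Il2rb, a receptor chain for IL-2 and IL-15, averaged 444.7 against 142.2 CPM in DN3 (1.71 ± 0.34, 0.00102) and 136.9 against 20.4 in DN1 cells (2.81 ± 0.38, 3.04e-05). Id2, the Id protein of innate lymphoid cells, averaged 313.5 against 203.4 CPM in DN3 (0.69 ± 0.20, 0.0149) and 701.9 against 144.9 in DN1 cells (2.34 ± 0.21, 3.01e-07). Nfil3, a factor of innate lymphoid cells, averaged 14.9 against 5.25 CPM in DN3 cells (1.57 ± 0.31, 0.000997), and Klrd1, an NK cell receptor gene, 2.25 against 0.244 in DN1 cells (3.17 ± 1.01, 0.0303). On day 5, 2 of these genes, Zbtb16 and Il2rb, were higher in DN1 floxed cells, where 5.02% of all genes passed. In DN3 floxed cells 1, Zbtb16, was higher and 1, Id2, was lower (9.76% of all genes passed). Bcl11b did not pass in either precursor on that day. Its part in the values of these genes was not tested on either day.

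ILC2 genes that depend on Gata3 in mouse numbered 6, of which 5 could be tested. On day 7, 3 were higher in DN3 floxed cells (list median 1.45) and 2 in DN1 floxed cells (3.59), with 0 lower. Rora, an ILC2 factor, averaged 196.5 against 20.2 CPM in DN3 (3.36 ± 0.38, adjusted p = 3.31e-06) and 570.9 against 49.5 in DN1 cells (3.59 ± 0.37, 1.73e-06). Il13, a type 2 cytokine, averaged 9.10 against 0.871 CPM in DN3 (3.42 ± 0.69, 0.0011) and 24.5 against 0.307 in DN1 cells (6.31 ± 0.79, 1.37e-05). Il2ra, the IL-2 receptor alpha chain, averaged 1738 against 665.3 CPM in DN3 (1.45 ± 0.10, 1.42e-08) and 1128 against 1293 in DN1 cells (-0.14 ± 0.10, 0.347). Il1rl1, the IL-33 receptor, averaged under 1 CPM in all 4 of these groups (0.880 against 0.490 in DN3, 0.266 against 0.307 in DN1).

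TCF-1 and LEF-1 carry the transcriptional output of beta-catenin. Of 8 response genes 6 could be tested, and 1 was higher in each precursor and 0 lower (list medians 0.11 in DN3 and 0.40 in DN1), a share no higher than the 24.9% and 22.5% of all genes called. In DN3 it was Axin2, an inhibitor of the pathway, at 36.5 against 11.3 CPM (1.78 ± 0.43, adjusted p = 0.00444). In DN1 it was Rnf43, which removes Wnt receptors, at 10.8 against 2.89 CPM (1.95 ± 0.42, 0.00232). Among 12 cofactors of the 4 factors, 2 were higher and 2 lower in DN3, and 1 higher and 2 lower in DN1 cells, with medians of 0.02 and 0.01, which is near the share of all genes called. Tle4, a Groucho corepressor that TCF-1 and LEF-1 recruit, averaged 57.9 against 27.5 CPM in DN3 cells (1.15 ± 0.14, 5.86e-06). Zfpm1, the GATA partner FOG-1, averaged 18.6 against 34.0 (-0.81 ± 0.17, 0.00146). Tle1 averaged 8.52 against 39.3 CPM in DN1 cells (-2.15 ± 0.25, 7.55e-06).

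Of 5 paralogs of the 4 genes, 0 were higher and 1 lower in DN3 floxed cells (list median -0.17), against 24.9% of all genes called either way, and 1 higher and 3 lower in DN1 floxed cells (-2.17), against 22.5%. Tcf7l2, the TCF family member called TCF-4, averaged 0.643 against 6.27 CPM in DN3 (-3.12 ± 0.62, adjusted p = 0.000871) and 4.62 against 21.7 in DN1 cells (-2.17 ± 0.37, 0.000318). Bcl11a, a progenitor factor and the paralog of Bcl11b, averaged 4.36 against 22.8 CPM in DN1 cells (-2.33 ± 0.34, 6.57e-05) and under 1 CPM in DN3 cells. Gata2 averaged 0.0643 against 2.45 CPM in DN1 cells (-4.87 ± 1.10, 0.00341). Of the 11 tested progenitor genes, which T-lineage factors shut down, 1 was higher and 0 lower in DN3 cells and 2 were higher and 5 lower in DN1 cells (medians -0.12 and -2.33).

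Without the muscle-marked DN1 floxed b, the day 7 DN1 counts of these lists were 9 lower and 0 higher for the T-identity genes, 2 higher and 7 lower for the other regulators, and 4 higher and 0 lower for the genes raised by Bcl11b loss. The Gata3-tied ILC2 genes had 2 higher and 0 lower, the beta-catenin response genes 1 and 0, and the cofactors 2 and 2. The paralogs had 0 higher and 3 lower and the progenitor genes 1 and 4. Klrd1, Tcf7l1, Bcl9l, Zbtb7b, Ikzf1, Runx1, Mef2c, Meis1 and Gfi1b passed with that library and not without it, while Tle3, Ctnnb1 and Kit passed without it alone. Of the DN1 genes of these lists given with values above as higher or lower, all but Klrd1 still passed without it. Bcl11b itself and Tcf3, which are not in these lists, did not.

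**Figure D4:**
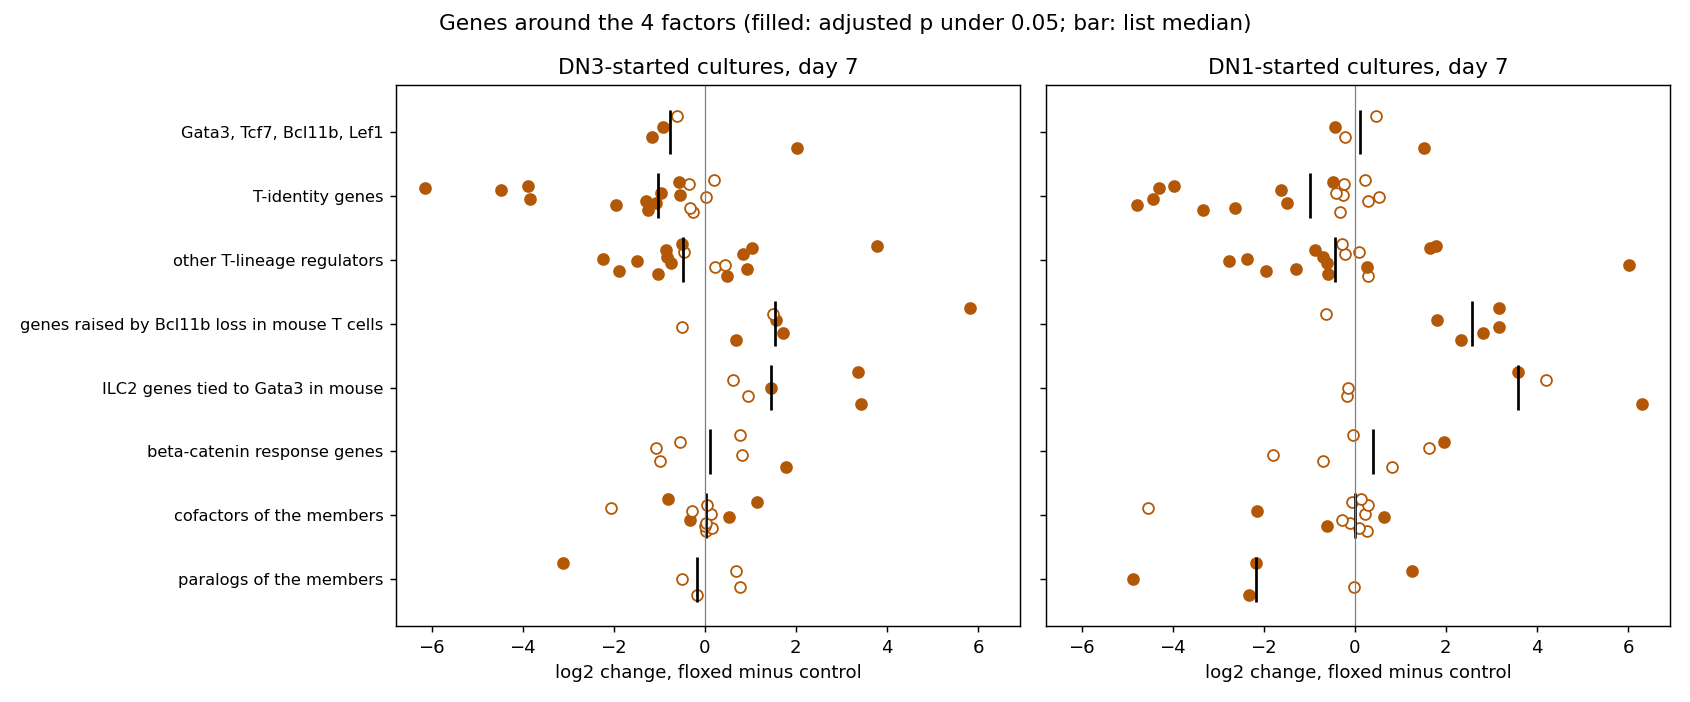
Log2 change of floxed minus control cells on day 7 for the 4 genes and for the genes of each list around them, in DN3 (left) and DN1 cultures (right); filled points passed at an adjusted p under 0.05 and the bar marks the list median. The T-identity medians stand at -1.02 and -0.98, and those of the genes raised by Bcl11b loss at 1.53 and 2.58.

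Across the 24 culture libraries, Bcl11b and Lef1 had a Pearson correlation of log2(CPM + 1) of 0.88, Tcf7 and Bcl11b of 0.86 and Tcf7 and Lef1 of 0.68, while Gata3 with the other 3 gave -0.06 to 0.02. These describe 24 libraries that share precursors, days and genotypes. They include the unsorted day 4 libraries with their stromal RNA and the muscle-marked DN1 floxed day 7 b. The part of such RNA in the correlations was not tested. Among 6309 genes with a mean of at least 20 CPM, the patterns most like Gata3 were those of Cdc42se1 (r = 0.972), Ikzf2 (0.96, Helios of the Ikaros family), Esyt1 (0.952), Itpripl1 (0.948) and Actr3 (0.94, a subunit of the Arp2/3 complex). For Tcf7 they were Ezh2 (0.948, a histone methyltransferase), Neil3 (0.939), Mki67 (0.939, a mark of dividing cells), H2afv (0.935) and Nusap1 (0.935, a spindle protein). For Bcl11b they were Thy1 (0.985) and Lck (0.981), both of the T cell surface and its signalling, then Mier1 (0.971), Klf13 (0.966) and Trp53i11 (0.966). For Lef1 they were Themis (0.976) and Zap70 (0.963), both of TCR signalling, with Edem1 (0.975), Slamf6 (0.971, a lymphocyte receptor) and Slc16a5 (0.962).

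Thymic dKO ILC2 were set against the day 7 floxed cultures, with the same 2 thymic libraries in both comparisons. The 2 kinds of library differ in being freshly isolated or cultured and also in sex, with Xist at a mean of 0.192 CPM in thymic ILC2, against 1785 in DN3 and 1456 in DN1 floxed cells. Neither can be told apart from the cell type, and 73.7% of 16391 genes passed against DN1 and 71.8% against DN3 floxed cells, so a call by itself says little about the members. The scaling matters here: the TMM factors were 0.5495 and 0.6578 in thymic ILC2, against 0.9824 to 1.115 in the cultures, and the median over all genes stood at -0.26 and -0.20 with TMM and at -0.99 and -0.92 with library totals, in the comparisons with DN1 and DN3. Of the members, 4 passed against DN1 and 3 against DN3 floxed cells.

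Gata3 was lower in thymic ILC2 under each scaling. It stood at 78.1 and 145.3 CPM, against 625.7 and 666.3 in DN3 and 542.4 and 408.6 in DN1 floxed cells. The changes were -1.84 ± 0.22 against DN3 (adjusted p = 1.97e-07) and -1.37 ± 0.22 against DN1 (9.75e-06), and -2.53 and -2.09 with library totals. Bcl11b was lower too, at 126.8 and 183.5 CPM in thymic ILC2, against 897.7 and 774.2 in DN3 and 523.4 and 416.2 in DN1 floxed cells (-1.72 ± 0.14, 2.07e-10, and -0.87 ± 0.13, 6.04e-06). With library totals these became -2.43 and -1.60.

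Tcf7 held 575.9 and 440.4 CPM in thymic ILC2, above the DN3 floxed libraries at 405.5 and 305.3 and overlapping the DN1 floxed libraries at 540.2 and 346.6. The change was 1.27 ± 0.18 against DN3 (adjusted p = 2.08e-06) and 0.97 ± 0.18 against DN1 (5.31e-05) with TMM. With library totals it was 0.52 (0.00825) and 0.20, which no longer passed (0.279). Lef1, the last of the 4, held 76.5 and 87.8 CPM, between the DN3 floxed libraries at 145.4 and 108.8 and the DN1 floxed libraries at 21.9 and 12.5. It was higher than in DN1 cells (3.0 ± 0.39, 5.87e-07, and 2.26 with library totals) and did not pass against DN3 cells (0.10 ± 0.35, 0.818, and -0.62 with library totals). Alpha-beta T cell markers summed to 465.3 and 697.0 CPM in thymic ILC2, against 2091 and 2202 in DN3 and 1252 and 1509 in DN1 floxed cells on day 7, with a count for all 6 in thymic ILC2. Their part in the Tcf7 and Lef1 levels was not tested.

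In lung ILC2, dKO against plck-Id1, 0 of 4 members passed with edgeR (18.1% of 19371 genes passed, and 6416 had an unadjusted p under 0.05), and 1 passed with DESeq2, Lef1 (1.19, adjusted p = 0.0318). The number of genes called was 3499, and 183 without dKO replicate 3 and 5774 without dKO replicate 1. Gata3 held 436.8 and 133.1 CPM in dKO cells, against 321.1, 262.6 and 333.6 in plck-Id1 cells (-0.14 ± 0.39, 0.837). The 2 dKO libraries lay on either side of all plck-Id1 libraries. Tcf7 held 165.6 and 39.5 CPM, against 61.8, 49.8 and 109.5 (0.46 ± 0.46, 0.531, and -0.53 without dKO replicate 1), and Lef1 61.5 and 22.7 CPM, against 21.7, 13.3 and 29.2 (1.0 ± 0.44, 0.143). Bcl11b held 168.3 and 80.1 CPM in dKO cells, against 327.5, 115.4 and 324.3 in plck-Id1 cells (-0.96 ± 0.40, 0.124). In all 4 genes dKO replicate 1 was above dKO replicate 3. The 6 alpha-beta T cell markers summed to 398.3 and 533.3 CPM in dKO and 267.0 to 321.8 in plck-Id1 cells, and the 8 B cell markers to 17.1 and 48.2 against 0.919 to 5.07. Stromal markers summed to 68.1 and 126.6 CPM in dKO against 5.82 to 20.5 in plck-Id1 cells, and muscle markers to 84.05 and 137.7 against 17.8 to 28.5. The stromal and muscle sums were highest in dKO replicate 3, and the B cell sum in dKO replicate 1. The part of these markers in the values was not tested. Bcl11b passed without plck-Id1 replicate 2, its low library (-1.19, 0.0443). With 3 residual degrees of freedom and a coefficient of variation of 0.706, against 0.138 in the cultures, the lung intervals are wide, running over 2 SE from -0.92 to 0.64 for Gata3.

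Ordered by mean CPM over the 15 groups, Gata3 was highest in DN3 floxed day 7 cells (646.0), separate from all other groups. DN1 floxed day 7 cells (475.5) came next. They were separate from the group that followed but overlapped dKO lung ILC2, whose replicate 1 held 436.8 CPM against 408.6 in DN1 floxed b. The following 4 groups, plck-Id1 lung ILC2 (305.8), DN1 floxed day 5 (295.3), dKO lung ILC2 (285.0) and DN3 floxed day 5 (249.5), overlapped one another in this order, and DN3 floxed day 5 cells were separate from the group that followed. DN1 control day 4 cells were lowest (72.0). Tcf7 was highest in DN3 floxed day 5 cells (946.3), overlapping with DN3 controls, and lowest in plck-Id1 lung ILC2 (73.7), overlapping with dKO lung ILC2 (102.6). Bcl11b was highest in DN3 control day 7 cells (1640), separate from all other groups, and lowest in dKO lung ILC2 (124.2), overlapping with thymic ILC2 (155.1). Lef1 was highest in DN3 floxed day 5 cells (260.7), overlapping with DN3 controls of day 4 (251.6), and lowest in DN1 control day 5 cells (6.27). On the per-length scale Gata3 ranked first in both lung groups, with 54.7% and 54.9% of the summed CPM per kb in dKO and 49.7% to 65.5% in plck-Id1 libraries, while Tcf7 ranked first in thymic ILC2 with 83.3% and 70.8%. The lung and thymus tables are separate files, so levels set across them are CPM of each library's own total and were not tested.

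Genes that overlap a member in the annotation were low. The highest was Gm43352, antisense to Lef1, at up to 15.5 CPM in a library with a median of 0.933. Gm42449, on the same strand as Lef1, reached 8.99 CPM with a median of 2.3. A630014C17Rik, antisense to Tcf7, reached 6.93 CPM, and Gm13256, antisense to Gata3, 2.70 CPM. Whether the counting used strand is not given in the sources used here, so reads of antisense pairs cannot be told apart. Strand could not separate Gm42449 from Lef1 in any case. Both points bear most on Lef1 in DN1 cells.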

How the data were processed

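RNA-seq of 31 libraries was analysed from deposited raw counts per Ensembl gene, 1 table for thymus (26 libraries) and 1 for lung (5). The authors used the mm10 build and DESeq2, per the submitters' processing notes. The aligner, counting program and use of strand were not given in the sources used here. Total RNA was extracted with Trizol, per the labels. Of 48881 gene rows, 48664 matched GENCODE M21 and 217 did not. Groups came from the titles. Nothing says whether replicates are separate animals, so p-values reflect only spread among these libraries, which may be technical.

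Tests used edgeR 4.0.16 in R 4.3.3: TMM scaling, filterByExpr with a minimum count of 10, glmQLFit with 1 mean per group over all 24 culture libraries (15172 genes), all 26 of the thymus table (16391) or the 5 lung libraries (19371), and Benjamini-Hochberg adjustment over all genes tested; a gene passed under 0.05. SE was taken as the log2 change divided by sqrt(F). CPM is the count scaled to the library total. The edgeR code was also run on simulated counts of 1 culture comparison and of the lung, fitting only the groups compared. The simulated spread followed the same preset rule in both, so that run does not show how the lung fit performs at its own spread. Alternatives were RLE scaling, no filter, DESeq2 1.42.0, only the groups compared, a replicate block, each library left out, and library totals as scaling, chosen after seeing the data.

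The 4 genes, the gene lists and the tests were chosen with earlier results of these data known. Within a list, the examples are from the 4 called genes with the largest change in a precursor. Il1rl1, Il2ra in DN1 cells, the alpha-beta T cell markers, and the genes whose call rested on 1 library were named after their values were seen. Likeness is the Pearson correlation of log2(CPM + 1) over 24 libraries, 5 genes per member. Promoter windows are from RefSeq. Replicates of a group differed beyond sampling noise, so none was counted as a duplicate.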

Additional observations from a re-analysis of the deposited data

Results flagged for a closer look

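Of the results above, 5 were interaction tests that passed, in which the genotype difference itself differed between days or precursors. Between day 4 and day 7 the genotype difference moved in DN3 cells by 1.91 for Gata3, by -1.05 for Tcf7 and by -0.88 for Bcl11b, and in DN1 cells by -1.0 for Bcl11b (log2, edgeR interaction). For Bcl11b in DN1 cells it ran from 0.57 on day 4, before 4-OHT, to -0.43 on day 7. On day 7 the response of Tcf7 differed between precursors by -0.95, DN3 minus DN1. Day 4 libraries were not sorted for tdTomato and hold 1439 to 7358 CPM of stromal markers, and floxed and control cultures differ in sex; the part of either was not tested.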

How the results depend on the processing

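The number of members called was the same, or within a ratio of 1.5, under most alternatives, and no call changed sign. Changes within that ratio are not all listed here. Without the filter on low counts Lef1 also passed in DN3 floxed cells between days 5 and 7 (-0.96, adjusted p = 1.72e-10). Without the filter on low counts 4 members passed on day 4 in DN1 cells, 3 in the DN1 change from day 4 to 7, 2 and 4 in the DN3 minus DN1 response on days 5 and 7, 3 in DN1 controls between days 5 and 7, and 4 between DN3 and DN1 floxed cells on day 7. With DESeq2 2 passed on day 4 in DN1 cells and 2 in the DN1 change, and 1 each in DN1 controls between days 5 and 7 and in the lung; RLE scaling and library totals also gave 1 in those controls. Fitting only the groups compared gave 1 on day 4 and 1 on day 7 in DN1 cells, 1 and 0 in the response on days 5 and 7, and 0 and 3 in DN1 floxed and control cells between days 5 and 7. Leaving out 1 library gave 0 to 2 on day 4, 0 to 2 on day 5 and 1 to 3 on day 7 in DN1 cells, 1 to 2 in the DN1 change, 0 to 2 in the day 7 response, 1 to 2 in DN1 floxed and 0 to 1 in DN3 control cells between days 5 and 7, and 0 to 1 in the lung. Causes were not tested. The letters were not taken to pair the culture libraries: over 30 pairs of groups of one genotype the correlation of letter differences ran from -0.24 to 0.30 (median 0.0, 9 over 0.1), though among the DN3 floxed groups it was 0.15 to 0.21, and 0.12 to 0.30 between these and DN1 floxed day 7. With a replicate block 2 members passed in the DN1 change (Tcf7 also, -0.66, adjusted p = 0.0185), Lef1 passed in DN3 floxed cells between days 5 and 7 (-0.99, 0.0415), and 1 passed in the lung (Bcl11b, -1.26, 0.0481). The lung fit is limited by its few libraries, and Lef1 in DN1 cells by its counts of 41 to 368. Counts over all genes moved more: in DN1 cells on day 7, 3412 genes passed, and 798 when the 2 groups were fitted alone and 1688 to 5803 with 1 library left out. The day 7 response count was 1182, against 369 and 497 to 3150, the DN1 change 1180, against 421 and 578 to 3748, and DN3 against DN1 floxed cells 3343, against 587 and 1806 to 5172. DN1 controls between days 5 and 7 gave 1988, against 4261 and 703 to 1025. Leaving out 1 library gave 2149 to 2878 against 3775 genes in DN3 cells on day 7, 449 to 1203 against 1481 on day 5, and 225 to 685 against 761 in DN1 cells on day 5. It gave 984 to 1744 against 1866 in the DN3 change, 2149 to 3058 against 3717 and 1535 to 1990 against 3073 in DN3 floxed and control cells between days 5 and 7, 3012 to 3366 against 4546 and 2040 to 2275 against 3431 between DN3 and DN1 controls on days 5 and 7, and 56 to 149 against 207 in the day 5 response, where no filter gave 536 and DESeq2 356. No filter gave 1900 in the day 7 response and 1882 in the DN1 change, and fitting the DN1 day 4 groups alone gave 38. On day 4 no filter gave 229 genes in DN1 cells, against 16 with it, and 257 in DN3 cells, against 67, DESeq2 gave 49 in DN1 cells, and leaving out 1 library gave 8 to 38 in DN1 and 30 to 41 in DN3 cells. The counts of DN1 floxed cells between days 5 and 7 (3256, 133 alone) and of the lung (3499, 183 to 5774) are given above.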
